A study of Mus musculus with 8 samples.

Results

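In each of *Arhgap32*, *Eif4e3*, *Gab2* and *Il17d*, 1 promoter lost most of its H3K4me3 signal in *Gpx4*-deficient lung tumor cells. Among promoter peaks that averaged at least 10 CPM (scaled reads) in control tumor cells, these 4 fell furthest. Some weaker promoters fell as far. The rank comes from the values that chose the peaks, and all 4 cleared the cut through only 1 of the control libraries. At *Gab2* and *Il17d* the size of the loss leaned on 1 control library. The 4 genes were chosen by that measured loss, their log2 fold changes between the groups, and every peak that the deposited table assigns to them was collected: 9 of 35486 listed peaks, of which 4 are the lost promoter peaks and 5 are other peaks. The lost peak of a gene is its promoter peak with the lowest log2 fold change. Its difference between the groups is therefore a description, given without a test. The other promoter peaks of a gene were compared in that choice and lie above the lost peak by definition. Their own differences between the groups were tested, as were those of the intronic peaks and the neighbouring genes.

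H3K4me3, the trimethylation of lysine 4 of histone H3, marks the nucleosomes around active transcription start sites. A gene with several promoters carries a separate peak at each start in use, so the peaks show which starts are marked, although not how much RNA is made. *Arhgap32* encodes a GTPase-activating protein that switches off small GTPases. *Eif4e3* encodes a member of the eIF4E family, which binds the cap of mRNA. *Gab2* encodes a docking protein that, once phosphorylated, recruits the phosphatase SHP2 and PI3K to growth factor receptors. *Il17d* encodes a secreted cytokine of the IL-17 family.

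The libraries came from CD45-CD31-EpCAM+ cells sorted from lung tumors of C57BL/6 mice, 2 of KL mice (replicates 1 and 2) and 2 of KLG4m/m mice (replicates 3 and 4). KL mice carry KrasLSL-G12D/+ and Lkb1fl/fl, and KLG4m/m mice carry in addition Gpx4m/m, in which *Gpx4* exons flanked by rox sites are removed by a tamoxifen-dependent Dre recombinase that Cre first switches on. Both groups received Ad-Cre through the nose at 8 to 10 weeks of age, followed by 5 weeks of growth, 2 weeks of tamoxifen and 3 weeks of rest. The adenovirus is not restricted to 1 lung cell type, and the sort on EpCAM does not part tumor cells from other epithelial cells. GPX4 is the enzyme that reduces lipid hydroperoxides and thereby holds off ferroptosis.

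The libraries held 3244495 to 3463731 reads in the listed peaks. The chi-square per degree of freedom over all peaks was 1.129 within KL, 1.231 within KLG4m/m and 2.372 to 2.799 between groups. No library was therefore an exact copy of another. Within a group these values are near counting error, and edgeR's common dispersion over peaks was 0.001328. Whether the libraries of a group came from different mice cannot be told from such values. Counts were scaled as CPM, reads per 1000000 reads in peaks after TMM scaling, and log2 fold changes are those of KLG4m/m over KL from edgeR's quasi-likelihood fit over all listed peaks. With 2 libraries per group the p-values measure the spread between these libraries. An exact permutation test has 3 splits to draw on and cannot pass the threshold of 0.05. The promoter peaks of *Gpx4* (242 and 236 reads in KL, 304 and 301 in KLG4m/m) and of *Stk11*, the gene of LKB1, were present in all libraries. Since the deleted exons lie outside the *Gpx4* promoter peak, this peak does not check the deletion. Summed over its peaks, *Gpx4* had a log2 fold change of 0.39 (adjusted p = 0.00178, edgeR) and *Stk11* of 0.36 (adjusted p = 6.36e-05, edgeR).

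Of the 4 genes, 2 had promoter sequences in the RefSeq table used here (build GRCm38.p6), each 250 bases before to 50 bases after a transcription start. The deposited table uses another build, so its peaks cannot be placed on these bases by position. For *Arhgap32* the starts can be paired: the starts of NM_001370958.1 and NM_177379.5 lie 191972 bp apart in the deposited table and the starts of 2 RefSeq windows lie 191972 bp apart. The start of NM_001370958.1 carries the lost peak and that of NM_177379.5 a peak that was not called, and both are shown because they are promoters of 1 gene with different outcomes. Another *Arhgap32* window has no counterpart among the starts of the deposited table. The *Il17d* window is that of its single RefSeq start, whose exact offset from the lost peak is not known. The sequences run 5′ to 3′ on the plus strand with CpG dinucleotides in capitals.
*Arhgap32*, start of NM_001370958.1 (lost), chr9:32032053-32032352: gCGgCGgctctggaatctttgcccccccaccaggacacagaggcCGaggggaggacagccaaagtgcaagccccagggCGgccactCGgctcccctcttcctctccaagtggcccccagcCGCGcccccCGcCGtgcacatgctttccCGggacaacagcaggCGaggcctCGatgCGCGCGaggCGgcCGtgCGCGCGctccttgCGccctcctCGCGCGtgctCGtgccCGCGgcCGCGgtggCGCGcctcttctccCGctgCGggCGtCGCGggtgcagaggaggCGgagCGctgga
*Arhgap32*, start of NM_177379.5 (not called), chr9:32224025-32224324: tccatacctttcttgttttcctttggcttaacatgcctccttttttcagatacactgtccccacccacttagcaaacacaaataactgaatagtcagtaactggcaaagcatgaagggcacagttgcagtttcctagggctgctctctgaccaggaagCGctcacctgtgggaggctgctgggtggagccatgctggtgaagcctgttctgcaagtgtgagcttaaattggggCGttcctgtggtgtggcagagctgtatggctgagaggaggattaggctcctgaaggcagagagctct
*Il17d*, chr14:57524579-57524878: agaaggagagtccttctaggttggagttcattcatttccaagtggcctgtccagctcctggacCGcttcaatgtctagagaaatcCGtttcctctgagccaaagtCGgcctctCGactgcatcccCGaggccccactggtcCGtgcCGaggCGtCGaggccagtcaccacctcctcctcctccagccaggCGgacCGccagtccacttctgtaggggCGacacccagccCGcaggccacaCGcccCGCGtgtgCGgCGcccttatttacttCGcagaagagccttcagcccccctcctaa
The window at the lost start of *Arhgap32* held 38 CpG and 74.3% G and C, and 95.05% of the 32851 windows in the table held fewer CpG. The window at the start of NM_177379.5 held 2 CpG and 51.0% G and C, with 14.1% of windows below it in CpG. The *Il17d* window held 19 CpG and 61.7% G and C, against a median of 7 CpG and 52.7% over all windows. Motifs were searched on both strands. The GC box GGGCGG was found once at the lost start of *Arhgap32* (35.7% of all windows hold it) and the CCAAT box CCAAT once at the start of NM_177379.5 (37.4% of windows). The TATA box TATAAA (13.6% of all windows), the E-box CACGTG (7.15%), the AP-1 site TGAGTCA (5.20%) and the cyclic AMP response element TGACGTCA (1.79%) had no match in these 3 windows. Neither the CCAAT box nor the GC box was found in the *Il17d* window.

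The lost promoters kept 10.3% to 15.7% of their KL signal. At *Arhgap32*, the peak on chromosome 9 from 31943538 to 31943938, over the start of NM_001370958.1, gathered 33 and 38 reads in KL and 2 and 5 reads in KLG4m/m. Mean signal was 10.2 ± 1.03 CPM in KL and 1.06 ± 0.685 CPM in KLG4m/m (SD, n = 2 each), with a log2 fold change of -3.24 (SE 0.431). The KL libraries were close to each other and far above both KLG4m/m libraries. On summed reads, 71 against 7, KL was 9.75-fold higher (exact 95% interval 4.49 to 25.1, counting error only). The size of this fold rests on very few KLG4m/m reads: the log2 fold change was -2.70 without KLG4m/m replicate 3 and -4.05 without KLG4m/m replicate 4.

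At *Eif4e3*, the lost peak (chromosome 6, 99669471 to 99669871) covers the start of XM_030255550.2, a predicted transcript that begins upstream of NM_025829.4. It held 29 and 45 reads in KL and 5 and 6 reads in KLG4m/m. In CPM this was 10.7 ± 3.27 against 1.65 ± 0.288 (SD, n = 2 each), a log2 fold change of -2.67 (SE 0.395). The groups did not overlap, which the choice of these peaks by their difference favours. The summed reads, 74 against 11, gave a 6.47-fold higher signal in KL (3.41 to 13.5, counting error only).

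*Gab2* has a single listed peak, on chromosome 7 from 96730849 to 96731249 over the start of NM_001162477.1. The KL libraries held 34 and 85 reads and the KLG4m/m libraries 12 and 6. Mean signal was 17.1 ± 10.4 CPM in KL and 2.67 ± 1.15 CPM in KLG4m/m (SD, n = 2 each), with a log2 fold change of -2.65 (SE 0.401). The groups did not overlap, as the choice of the peak favours, but KL replicate 2 held far more reads than KL replicate 1. With 119 against 18 summed reads KL was 6.35-fold higher (3.85 to 11.1, counting error only). This interval leaves out the spread between the KL libraries. Without KL replicate 2 the log2 fold change was -1.85.

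The lost peak of *Il17d*, on chromosome 14 from 57762570 to 57762970, lies 373 bp downstream of the start of NM_145837.4. It held 22 and 75 reads in KL and 7 and 6 reads in KLG4m/m, or 13.97 ± 10.8 CPM against 1.94 ± 0.122 CPM (SD, n = 2 each). The log2 fold change was -2.82 (SE 0.483) and the fold on summed reads, 97 against 13, was 7.17 (4.00 to 13.95, counting error only). This interval too leaves out the spread between the KL libraries. Again the groups did not overlap, as the choice of the peak favours, and KL replicate 2 was the high library. Leaving out KL replicate 2 gave a log2 fold change of -1.68, and leaving out KL replicate 1 one of -3.45.

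**Figure D1:**
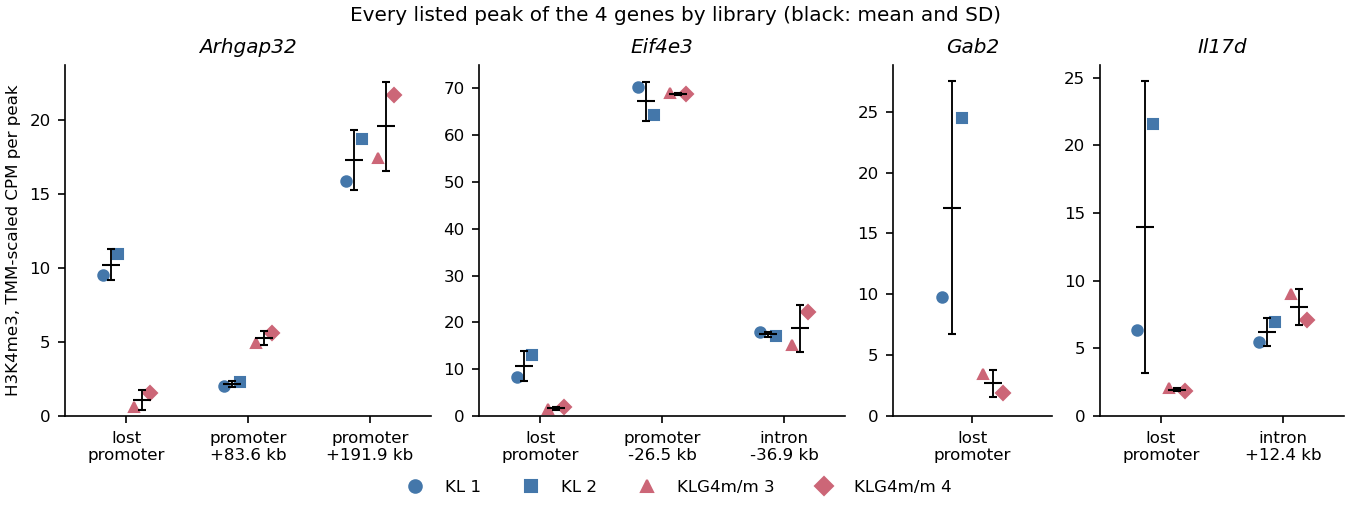
H3K4me3 signal (TMM-scaled CPM, linear axis from 0, own scale per gene) at each of the 9 listed peaks of the 4 genes, with 1 point per library and black marks for the group mean and SD (n = 2). The lost promoter of each gene sits near the axis in both KLG4m/m libraries, while the means of the other peaks of *Arhgap32*, *Eif4e3* and *Il17d* are no lower in KLG4m/m than in KL.

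The other peaks of the same genes had log2 fold changes between 0.04 and 1.27. None of these 5 peaks passed the threshold on the edgeR adjusted p, where 5.52% of all listed peaks passed as lower and 3.1% as higher. Of these 5 peaks, 1 had an unadjusted p under 0.05 with edgeR, a promoter of *Arhgap32* that was higher, and DESeq2 called 0 with 0 at an unadjusted p under 0.05. *Arhgap32* has 2 promoter peaks besides the lost one. The last promoter of the gene, from 32135441 to 32135841 over the start of NM_177379.5 and 191.9 kb downstream of the lost peak, held 55 and 65 reads in KL and 60 and 70 in KLG4m/m. Its signal was 17.3 ± 2.05 CPM against 19.5 ± 3.02 CPM (SD, n = 2 each), a log2 fold change of 0.17 (SE 0.190, adjusted p = 0.616, edgeR). The difference was smaller than the spread between replicates, at a peak stronger in KL than the lost one.

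The middle promoter of *Arhgap32*, from 32027184 to 32027584 over the start of NM_001195632.2 and 83.6 kb from the lost peak, held 7 and 8 reads in KL and 17 and 18 in KLG4m/m. Signal was 2.16 ± 0.205 CPM in KL and 5.25 ± 0.455 CPM in KLG4m/m (SD, n = 2 each). The libraries of a group were close to each other, with both KLG4m/m libraries above both KL libraries. How many of all listed peaks part the groups in this way is not given here, so the separation alone carries little weight. The log2 fold change of 1.27 (SE 0.429) had an unadjusted p of 0.0066 and missed the threshold (adjusted p = 0.0651, edgeR). DESeq2 gave this peak no adjusted p, and under the alternatives that gave one it lay between 0.0638 and 0.337.

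At *Eif4e3*, the promoter peak of NM_025829.4 (99642956 to 99643356, 26.5 kb from the lost peak) was the strongest of the 9 peaks. It held 244 and 223 reads in KL and 238 and 222 in KLG4m/m, a log2 fold change of 0.04 (SE 0.101, adjusted p = 0.868, edgeR). The intronic peak of *Eif4e3* (99632564 to 99632964, 36.9 kb from the lost peak) held 62 and 59 reads against 52 and 72, with a log2 fold change of 0.09 (SE 0.200, adjusted p = 0.815, edgeR). In both cases the groups overlapped. The peak in intron 2 of *Il17d* (57775016 to 57775416, 12.4 kb from the lost peak) held 19 and 24 reads in KL and 31 and 23 in KLG4m/m. Its log2 fold change was 0.38 (SE 0.295, adjusted p = 0.450, edgeR). In CPM both KLG4m/m libraries (8.99 and 7.12) were above both KL libraries (5.47 and 6.91). In unscaled reads the groups overlapped, with 24 in KL against 23 in KLG4m/m.

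The share of a gene's H3K4me3 reads that lay in its lost peak was lower in both KLG4m/m libraries. For *Arhgap32* it was 34.7% and 34.2% in the KL libraries and 2.53% and 5.38% in the KLG4m/m libraries. On summed reads it was 34.5% (exact 95% interval 28.0% to 41.4%, counting error only) against 4.07% (1.65% to 8.21%). For *Eif4e3*, where the lost promoter was the weakest of 3 peaks, the share was 8.66% and 13.8% in KL and 1.69% and 2.00% in KLG4m/m. For *Il17d* it was 53.7% and 75.8% in KL and 18.4% and 20.7% in KLG4m/m. These shares include the values that chose the genes. Summed over all its peaks, *Eif4e3* had a log2 fold change of -0.10 (SE 0.0908) and *Arhgap32* of -0.20 (SE 0.161), against -1.01 (SE 0.234) for *Il17d*. The summed value of *Il17d* rests on KL replicate 2: it was -0.23 without that library, and -1.50 without KL replicate 1. The summed values of *Eif4e3* and *Arhgap32* are close to 0 although 1 of their promoters was nearly unmarked in KLG4m/m.

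A promoter-class peak (a peak annotated as promoter, flanks included) called lower beside one not called lower was found at many genes. Of 2440 genes with at least 2 such peaks, 314 (12.9%) had at least 1 called lower and at least 1 not called lower. At 13 genes at least 1 was called lower and at least 1 higher. With flanks included, 2 such peaks can belong to 1 start. The 12.9% was not set against the share that unrelated calls would give. The 4 lost peaks stood out by the size of their difference, for which they were picked. Among the 19989 promoter-class peaks, 1535 (7.68%) were called lower and 40 (0.200%) had a log2 fold change at or under -2. The lost peaks stood at places 2 (*Arhgap32*), 5 (*Il17d*), 8 (*Eif4e3*) and 9 (*Gab2*) from the lowest. Among the 15828 with at least 10 CPM in KL they held the 4 lowest places. The next promoters with at least 10 CPM were those of *Pygo1* (-2.52), *Syde2* (-2.47) and *Insm1* (-2.45), just outside the 4. The 5 promoters with fewer than 10 CPM that fell as far were *Gm35886*, *Smpd3*, *Tbc1d4*, *Zfp804a* and *Rassf8*. Of these, *Zfp804a* lay just under that cut, with 9.21 CPM in KL and a log2 fold change of -2.74, lower than those of *Eif4e3* and *Gab2*.

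All 4 lost peaks were weak in KL. The median of the promoter-class peaks was 35.1 CPM in KL, and 21.2% (*Arhgap32*), 22.1% (*Eif4e3*), 27.6% (*Il17d*) and 32.2% (*Gab2*) of them had less signal than the lost peak.

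**Figure D2:**
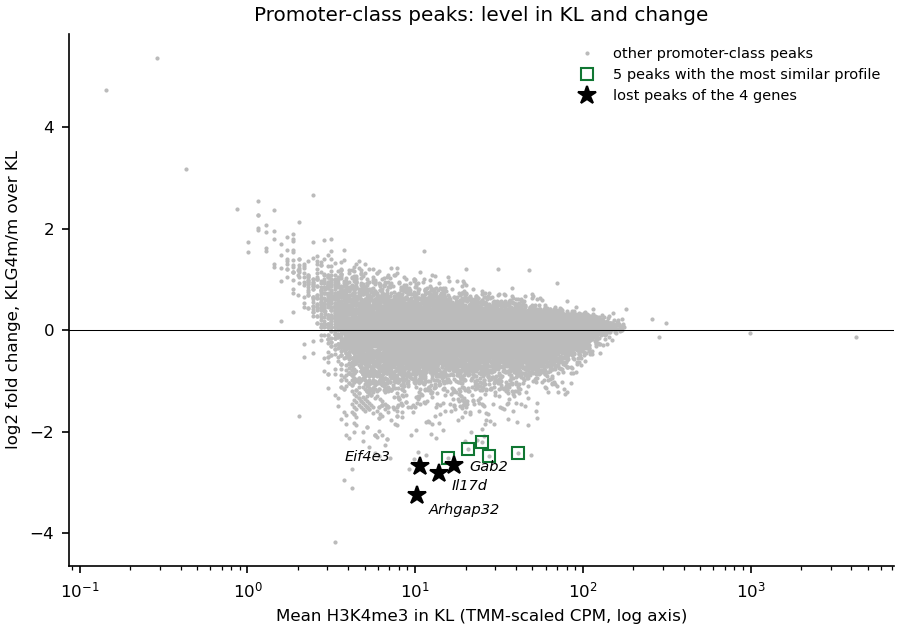
Each grey point is 1 promoter-class peak of another gene, placed by its mean H3K4me3 signal in KL (TMM-scaled CPM, log axis) and its log2 fold change, KLG4m/m over KL. The lost peaks (stars) lie between -2.65 and -3.24 at 10.2 to 17.1 CPM, below the bulk of peaks of that strength, and the 5 peaks of most similar profile (green squares) lie just above them.

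The KL libraries were unequal at some of the lost promoters. The signal of KL replicate 2 over that of KL replicate 1 was 1.15 at *Arhgap32*, 1.55 at *Eif4e3*, 2.50 at *Gab2* and 3.41 at *Il17d*. Among the 4728 peaks with 71 to 119 reads over both KL libraries, the range of the lost peaks, the median of this ratio was 1.00 and the 5th and 95th percentiles were 0.690 and 1.46. At *Il17d* 1 peak and at *Gab2* 4 peaks of the 4728 had a ratio as high or higher, each count including the peak itself. At *Eif4e3* this was 130 peaks (2.75%) and at *Arhgap32* 1218. The same direction was seen at other strongly reduced promoters: of the 36 promoter-class peaks of other genes with a log2 fold change at or under -2, KL replicate 2 was higher at 24, with a median ratio of 1.14. Over all promoter-class peaks KL replicate 2 was higher at 52.2%. The large values at *Gab2* and *Il17d* thus lean on KL replicate 2. *Arhgap32* held its value with either KL library left out (-3.34 without replicate 1 and -3.13 without replicate 2). *Eif4e3* lay between, with -2.95 without KL replicate 1 and -2.31 without KL replicate 2. Its ratio of 1.55 was above the 95th percentile.

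**Figure D3:**
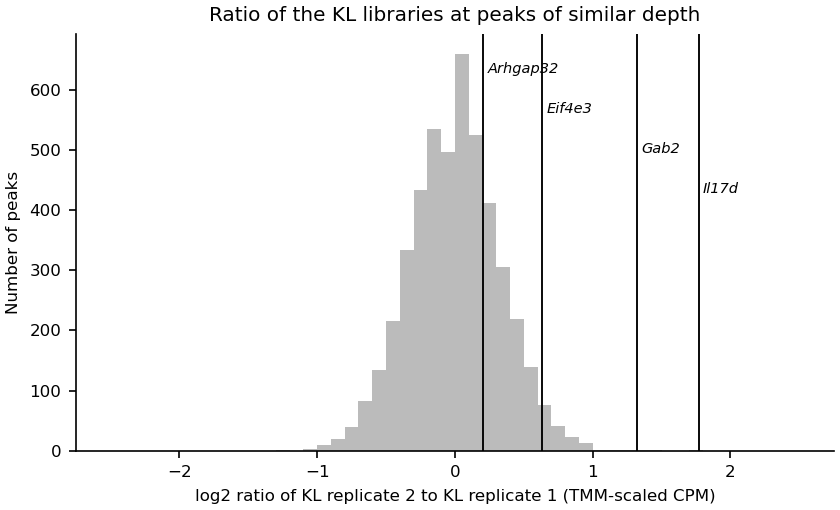
Histogram of the log2 ratio of KL replicate 2 to KL replicate 1 (TMM-scaled CPM) over the 4728 peaks with 71 to 119 KL reads, with the lost peaks as vertical lines. *Arhgap32* lies within the bulk, *Eif4e3* at its edge, and *Gab2* and *Il17d* outside it.

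Peaks assigned to neighbouring genes were called in both directions. Within 250 kb of the lost peaks the table lists 22 peaks assigned to other genes. Of these, 3 were called lower, 4 higher and 15 neither (edgeR, threshold 0.05 on the adjusted p). Their median log2 fold change was 0.03 against 0.0077 over all peaks. The 22 include 3 peaks that lie inside introns of *Gab2*, of which 1 was called higher. The shares, 13.6% lower and 18.2% higher, were above those over all peaks (5.52% and 3.1%), on few peaks. Without KL replicate 1 these counts were 4 lower and 1 higher, without KL replicate 2 they were 1 and 2, and without KLG4m/m replicate 3 or 4 no peak of the whole table passed (5486 and 5178 at an unadjusted p under 0.05). DESeq2 called 0 of the 22, with 3 lower and 4 higher at an unadjusted p under 0.05. Within 100 kb there were 4 peaks, of which 1 was called, higher, and within 1000 kb 147 peaks, with 7 (4.76%) lower and 8 (5.44%) higher.

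Around *Arhgap32*, the nearest listed peak of another gene on the side of lower coordinates was the promoter of *Barx2*, a homeobox transcription factor, 118.9 kb away. It held 12 and 19 reads in KL and 31 and 32 in KLG4m/m and was higher in KLG4m/m, with a log2 fold change of 1.07 (SE 0.310, adjusted p = 0.0298, edgeR). On the other side the nearest was an intronic peak of *Gm39317*, 320.4 kb away.

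Around *Eif4e3*, the promoter of *Prok2*, the gene of the secreted peptide prokineticin 2, lies 33.5 kb upstream of the lost promoter. It held 24 and 25 reads in KL and 45 and 44 in KLG4m/m, a log2 fold change of 0.91 (SE 0.247, adjusted p = 0.0201, edgeR). The lost promoter of *Eif4e3* thus lay between a promoter of the same gene that was not called and a neighbouring promoter that was higher. The promoter of *Foxp1*, a forkhead transcription factor, lies 170.5 kb away on the other side and had a log2 fold change of 0.06 (adjusted p = 0.799, edgeR).

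*Gab2* has no other peak of its own in the table, but 3 peaks inside its introns are assigned to *Usp35* by the distance to the nearest start. One of them, in intron 1 and 127.5 kb downstream of the lost promoter, held 5 and 12 reads in KL and 25 and 19 in KLG4m/m and was called higher, with a log2 fold change of 1.42 (SE 0.411, adjusted p = 0.0310, edgeR). The other two, 129.1 and 189.7 kb downstream, had log2 fold changes of 0.22 (adjusted p = 0.758, edgeR) and 1.14 (adjusted p = 0.118, edgeR). Counted by position inside the gene, whatever the assigned gene, 1 of 8 other peaks of the 4 genes was called, higher. Upstream of *Gab2*, *Nars2*, which encodes a mitochondrial aminoacyl-tRNA synthetase, had an intronic peak at 95.8 kb with a log2 fold change of -0.37 (adjusted p = 0.638, edgeR).

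The surroundings of *Il17d* held 12 of the 22 peaks and all 3 that were called lower. The median log2 fold change of these 12 was -0.20, against 0.17 around *Eif4e3* and 0.22 around *Gab2*. The nearest peaks of other genes were the promoter of *1700039M10Rik*, 46.3 kb away, with a log2 fold change of -0.01 (adjusted p = 0.963, edgeR), and the promoter of *Ift88*, a gene of intraflagellar transport, 101.2 kb away on the other side. *Ift88* held 256 and 269 reads in KL and 187 and 184 in KLG4m/m, a log2 fold change of -0.44 (SE 0.103, adjusted p = 0.00719, edgeR). The promoter of *Lats2*, a kinase of the Hippo pathway, held 192 and 198 reads against 134 and 104 and had a log2 fold change of -0.66 (SE 0.126, adjusted p = 0.00158, edgeR). The deepest neighbour was a peak of *Gm29717* with 17 and 23 reads against 8 and 1 and a log2 fold change of -2.07 (SE 0.525, adjusted p = 0.0139, edgeR). A distal peak assigned to *Sap18* was higher, by 0.85 on the log2 scale (SE 0.240, adjusted p = 0.0264, edgeR).

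**Figure D4:**
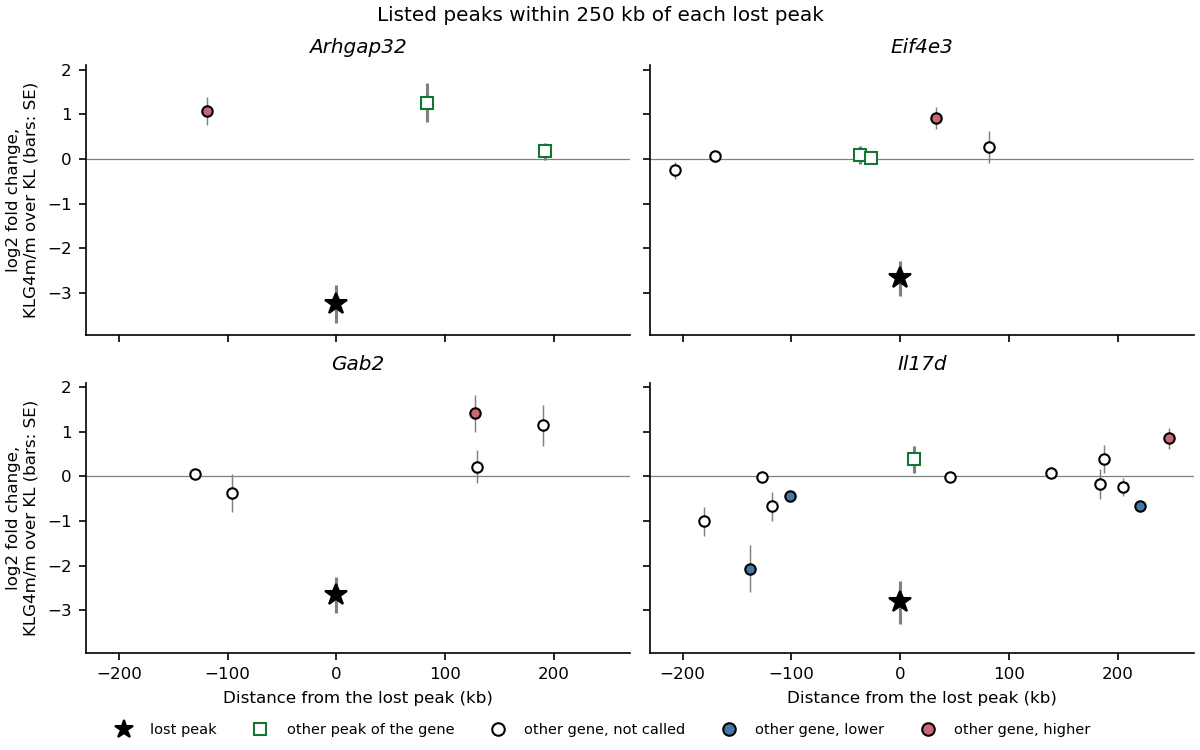
Log2 fold change (KLG4m/m over KL, bars: SE) of every listed peak within 250 kb of each lost peak (star) against the distance of its centre in kb. Other peaks of the same gene (green squares) and most peaks of other genes (circles) lie near or above 0. The 3 called lower (blue) are all near *Il17d*, where the median of the neighbours is -0.20.

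Other promoters shared the library profile of the 4 lost ones. Profiles were log2(CPM + 1) values centred over the 4 libraries, and 13682 promoter-class peaks of other named genes with at least 10 CPM in KL were ranked by their Euclidean distance from the mean profile of the 4. The closest were *Pygo1* (distance 0.221), *Epm2a* (0.252), *Rtn4r* (0.321), *Syde2* (0.442) and *Rev1* (0.492), and the 4 members themselves lay 0.291 to 0.727 from their mean. *Pygo1*, a co-factor of Wnt transcription with a PHD finger that binds methylated H3K4, held 38 and 71 reads in KL and 8 and 10 in KLG4m/m. *Epm2a*, which encodes the glycogen phosphatase laforin, held 114 and 170 reads against 25 and 26. *Rtn4r*, the gene of the Nogo receptor, held 60 and 113 reads against 20 and 16. *Syde2*, the gene of a GTPase-activating protein, held 83 and 109 reads against 19 and 14, and *Rev1*, a polymerase of translesion DNA synthesis, 62 and 81 against 16 and 11. The ranking uses all 4 libraries and selects both for low KLG4m/m signal and for KL replicate 2 above KL replicate 1, as in the members, so these levels are a description.

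Pathway partners of *Eif4e3*, *Gab2* and *Il17d* were compared by the reads summed over the peaks of each gene. Of the 34 with a peak, 2 (5.88%) were called lower and 2 (5.88%) higher, near or under the 9.63% lower and 5.38% higher over all 20871 genes, so that the counts show nothing particular to these partners. The median log2 fold change over all genes was 0.0023. Among genes of cap-dependent translation initiation, 14 of 15 had a peak, with 1 lower, 1 higher and a median of -0.08. *Eif4g3*, a scaffold of the cap-binding complex, was lower (log2 fold change -0.75, adjusted p = 0.0118, edgeR) and *Eif4a2*, an RNA helicase of the same complex, higher (0.30, adjusted p = 0.0203, edgeR). The relatives of *Eif4e3* did not pass: *Eif4e* had a log2 fold change of 0.05 (adjusted p = 0.843, edgeR) and *Eif4e2* of -0.16 (adjusted p = 0.434, edgeR). Among docking proteins and partners of *Gab2*, 13 of 14 had a peak, with 1 lower, 1 higher and a median of -0.01. These were *Plcg1* (-0.24, adjusted p = 0.0227, edgeR) and *Plcg2* (0.24, adjusted p = 0.0253, edgeR), both phospholipases C of receptor signalling. The relatives *Gab1* (-0.29, adjusted p = 0.0593, edgeR) and *Gab3* (0.37, adjusted p = 0.0635, edgeR) did not pass.

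Of 13 other ligands, receptors and adaptors of the IL-17 pathway, 7 had a listed peak. None was called with edgeR, with 0 lower and 1 higher at an unadjusted p under 0.05, and DESeq2 called 0, with 0 at an unadjusted p under 0.05. The median was -0.05. The lowest p-values were those of the receptor *Il17ra* (log2 fold change 0.18, adjusted p = 0.0528, edgeR), *Cd93*, reported as a receptor of IL-17D (0.30, adjusted p = 0.203, edgeR), and *Il17rd* (-0.24, adjusted p = 0.215, edgeR). The calls of these lists rested on 1 gene in each direction and depended on the test and the libraries. DESeq2 called 0 of the cap and GAB lists, each with 1 gene lower and 1 higher at an unadjusted p under 0.05. Without KL replicate 1 edgeR called 1 cap gene lower and 0 higher and 0 GAB genes, and without KL replicate 2 it called 0 cap genes and 1 GAB gene higher. With KLG4m/m replicate 3 or 4 left out it called 0 of all genes (4186 and 3827 at an unadjusted p under 0.05).

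**Figure D5:**
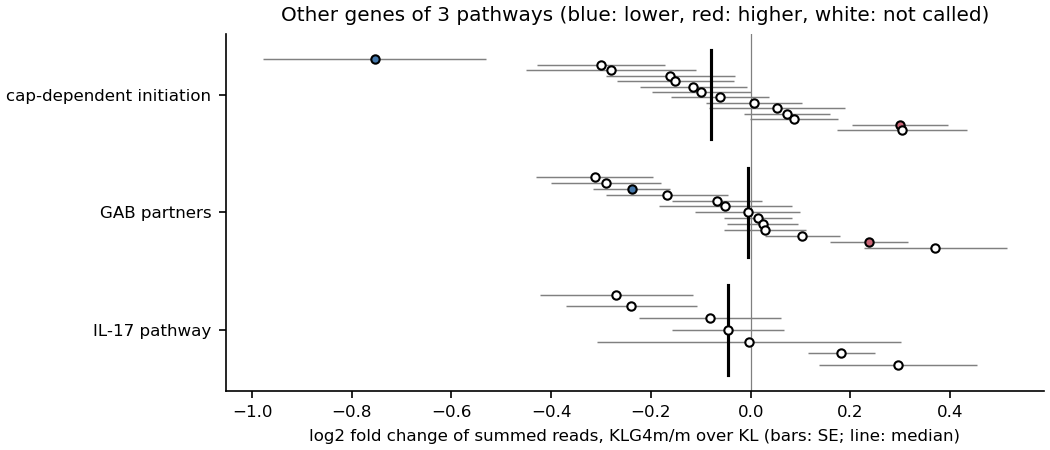
Log2 fold change of the summed H3K4me3 reads (KLG4m/m over KL, bars: SE) for each other gene with a listed peak. The rows are cap-dependent translation initiation, partners of *Gab2* and the IL-17 pathway. Thick lines mark the medians, which lie between -0.08 and -0.01, and 2 genes were called lower (blue) and 2 higher (red, edgeR).

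Cell type marker genes were read against the same background of 9.63% of genes called lower and 5.38% higher, and their calls too were lost without KLG4m/m replicate 3 or 4. Of 6 epithelial marker genes, 5 had a peak and 2 were called lower, *Epcam* (log2 fold change -0.82, adjusted p = 1.56e-06, edgeR) and *Cdh1* (-0.38, adjusted p = 0.00396, edgeR). *Krt8* (-0.28), *Nkx2-1* (-0.13) and *Krt18* (0.07) were not called. The summed signal of the 5 was 268 to 273 CPM in KL and 220 to 224 CPM in KLG4m/m. Although the cells were sorted as CD45-, 4 of 5 leukocyte markers had a peak and *Itgam* was called higher (0.56, adjusted p = 8.33e-05, edgeR), with sums of 163 to 170 CPM in KL and 203 to 220 CPM in KLG4m/m. Endothelial markers (4 of 4 with a peak) summed to 128 to 152 CPM in KL and 123 to 142 CPM in KLG4m/m. *Tek* was called lower (-0.55), and *Cdh5* (-0.51), *Kdr* (-0.14) and *Pecam1* (0.19) were not called. Fibroblast markers (3 of 4) summed to 64.6 to 71.7 CPM in KL and 69.5 to 72.8 CPM in KLG4m/m. *Pdgfrb* was called higher (1.29), and *Col1a1* (0.15) and *Pdgfra* (-0.08) were not called. *Sftpc*, *Cd79a* and *Col3a1* had no listed peak. Some single markers moved more than these sums, and the part of such marker differences in the losses was not tested. In such bulk libraries fewer cells with a marked promoter and less mark per cell cannot be told apart.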

How the data were processed

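H3K4me3 CUT&Tag was analysed in 4 libraries, 2 per group as the labels give them (the methods give 3 mice in total). The study's methods describe release of the marked chromatin with pAG-MNase. The authors trimmed reads (Trim Galore 0.6.10), mapped them with BWA 0.7.15, removed duplicates with Picard 2.17.3, and called peaks with MACS2 2.2.7.1, and the methods name HOMER 4.11.1 for annotation. They deposited whole-number read counts per peak of 400 bp, which were used here, with the annotation and the distance to the nearest start. The table's CPM columns and its own comparison (fold change, F, p-values) were not used. Its genome build, which is not GRCm38, was not used for sequence. The methods also leave out reads of mitochondrial DNA and reads of low mapping quality. How peaks were merged over libraries and whether any other read filter was applied is not given in the sources used here.

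Counts were scaled by TMM and tested, two-sided, with edgeR 4.0.16 (R 4.3.3) without a filter, Benjamini-Hochberg adjusted over 35486 peaks or 20871 genes, threshold 0.05. The SE is the log2 fold change divided by the root of F. The test was tried on simulated counts. Alternatives were RLE and total-read scaling, DESeq2 1.42.0, limma 3.58.1 on log2(CPM + 1), a filter of at least 10 CPM and each library left out. The text names all peaks of the 4 genes, the nearest peak of another gene on each side, called peaks within 250 kb, called genes of 3 pathway lists (or the 3 of lowest p; the list for *Arhgap32* is not reported here), the targeted genes, and the 5 promoters of most similar profile. The members and lists were chosen with earlier results of these data known. *Insm1*, the weaker reduced promoters, and the relatives *Eif4e*, *Eif4e2*, *Gab1* and *Gab3* were named after their values were seen. H3K27ac was not analysed here. A change of the same factor at every peak cannot be seen in values scaled to reads in peaks.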

Additional observations from a re-analysis of the deposited data

How the results depend on the processing

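No paired analysis was possible because the KL libraries are numbered 1 and 2 and the KLG4m/m libraries 3 and 4, so no number is shared. All 4 lost peaks kept a negative log2 fold change under every alternative run. limma on log2(CPM + 1) gave -2.49 at *Arhgap32* and -2.12 at *Eif4e3*, since the pseudocount compresses low values, and with each library left out *Arhgap32* ran from -4.05 to -2.70. The filter on 10 CPM removed lost peaks of low mean signal, so it gave them no value. DESeq2 called 250 peaks lower and 33 higher over the whole table, 0 and 0 of the neighbours, and 0 lower and 0 higher in the cap and GAB lists. The filter left 2 neighbours higher and 3 GAB genes lower. RLE scaling called 1 IL-17 gene higher, and the highest peak per gene 0 GAB genes higher. Windows of 100 and 1000 kb gave 0 and 7 neighbours lower and 1 and 8 higher, and counting peaks inside the gene span, an alternative chosen after seeing the data, gave 1 other peak called. Leaving out 1 library at a time gave 0 to 1459 peaks lower and 0 to 702 higher over the whole table, 0 to 4 neighbours lower and 0 to 2 higher, 0 to 1 cap genes lower and 0 higher, 0 GAB genes lower and 0 to 1 higher, and 0 to 1 IL-17 genes higher. Over the whole table the 0 calls arose without either KLG4m/m library: edgeR's prior degrees of freedom over peaks then fell from 24.5 to 2.63, and 5486 and 5178 peaks still had an unadjusted p under 0.05. Over the fits without 1 library, the *Eif4e3* promoter peak 26.5 kb from the lost one ran from -0.027 (without KL replicate 2) to 0.10 and its intronic peak from -0.20 (without KLG4m/m replicate 4) to 0.35 on the log2 scale, not called in any. No other peak of the 4 genes was called under any of these fits. Scaling moved the median of all peaks by less than 0.1. Weak peaks with few reads per library limit what could be called.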
